A study of Homo sapiens with 4 samples.

Results

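The 41 genes described here encode chromatin regulators whose names run from ACTL6A to BRWD3, most of them with a bromodomain or an AT-rich interaction domain (ARID) or in a complex with such a protein. They were taken by gene name from a table of 2864 genes, an alphabetical part of the gene list, and all 41 were found in it. The RNA came from A375, a line of human melanoma cells with a mutant BRAF kinase, and was sequenced in 4 conditions with 1 library each. A375P was the parental line without treatment, and A375R was the strain raised from it by stepwise increased vemurafenib, kept under the drug, for which the labels give no dose. A375+DMSO and A375+VEM were A375 cells given the solvent DMSO or 2 μM vemurafenib, an inhibitor of the BRAF kinase, for 48 h. All 4 libraries carry the same cell line label, wild-type genotype and batch date, and the sources used here do not say whether A375R was 1 clone. As each condition was sequenced in 1 library, none of the differences below could be checked against replicates, and they carry no p-values.

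Chromatin regulators act on nucleosomes, the units of DNA wound on histone proteins. Bromodomains bind acetylated lysines on histones, and ARID domains bind DNA. Remodelling complexes such as SWI/SNF and ISWI slide or evict nucleosomes, Polycomb and SIN3 complexes keep genes silent, acetyltransferase and methyltransferase complexes write marks on histone tails, and chaperones such as ASF1 hand new histones to DNA during replication.

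The table holds read counts and TPM, a measure per length that adds up to the same total in each library, so that levels can be set side by side between genes. The counts of the 2864 genes summed to between 1891215 and 2054277 per library, a share of each library rather than its full depth. Of the markers chosen for pigment cells and melanoma, 5 of 12 were in the table. BCAN was at a TPM of 15.4 to 34.1, ASAH1 at 15.9 to 32.9 and APOE at 11.3 to 26.3, while BIRC7 was at 1.66 or below. APOD was at 2.89 in A375P and 0.457 in A375R, with 1.77 in A375+DMSO against 11.8 in A375+VEM. Among markers of other cell types AIF1, BLK and BTK had 8 reads or fewer in each library, and ALB, a liver marker, was at a TPM of 46.4 to 64.5. Of 2 smooth muscle markers, ACTG2 had 9 reads or fewer, whereas ACTA2 was at a TPM of 92.2 in A375P and of 28.3 to 40.1 in the other 3 libraries. The source of these reads, and its part in the values of the chromatin genes, was not tested.

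In every library 40 of the 41 genes had a TPM of at least 1. Their median TPM was 25.2 in A375P and 26.5 in A375R, with 22.1 in A375+DMSO against 24.6 in A375+VEM, and 36 of them had a TPM of at least 5 in all 4 libraries. By the median of the 4 libraries the most abundant were BRD2, with a TPM of 78.7 to 116, BAZ1B, with 55.2 to 95.6, and BAZ2A, with 68.4 to 88.4. BAP1 followed, with 65.3 to 102. BRMS1 was at 137 in A375P but at 57.9 to 74.5 elsewhere. AUTS2, a Polycomb partner best known in neurons, had 4 to 6 reads per library and a TPM of 0.0737 to 0.108. It was left out of the comparisons, for which a gene had to reach a TPM of 1 in either of the libraries set side by side.

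**Figure D1:**
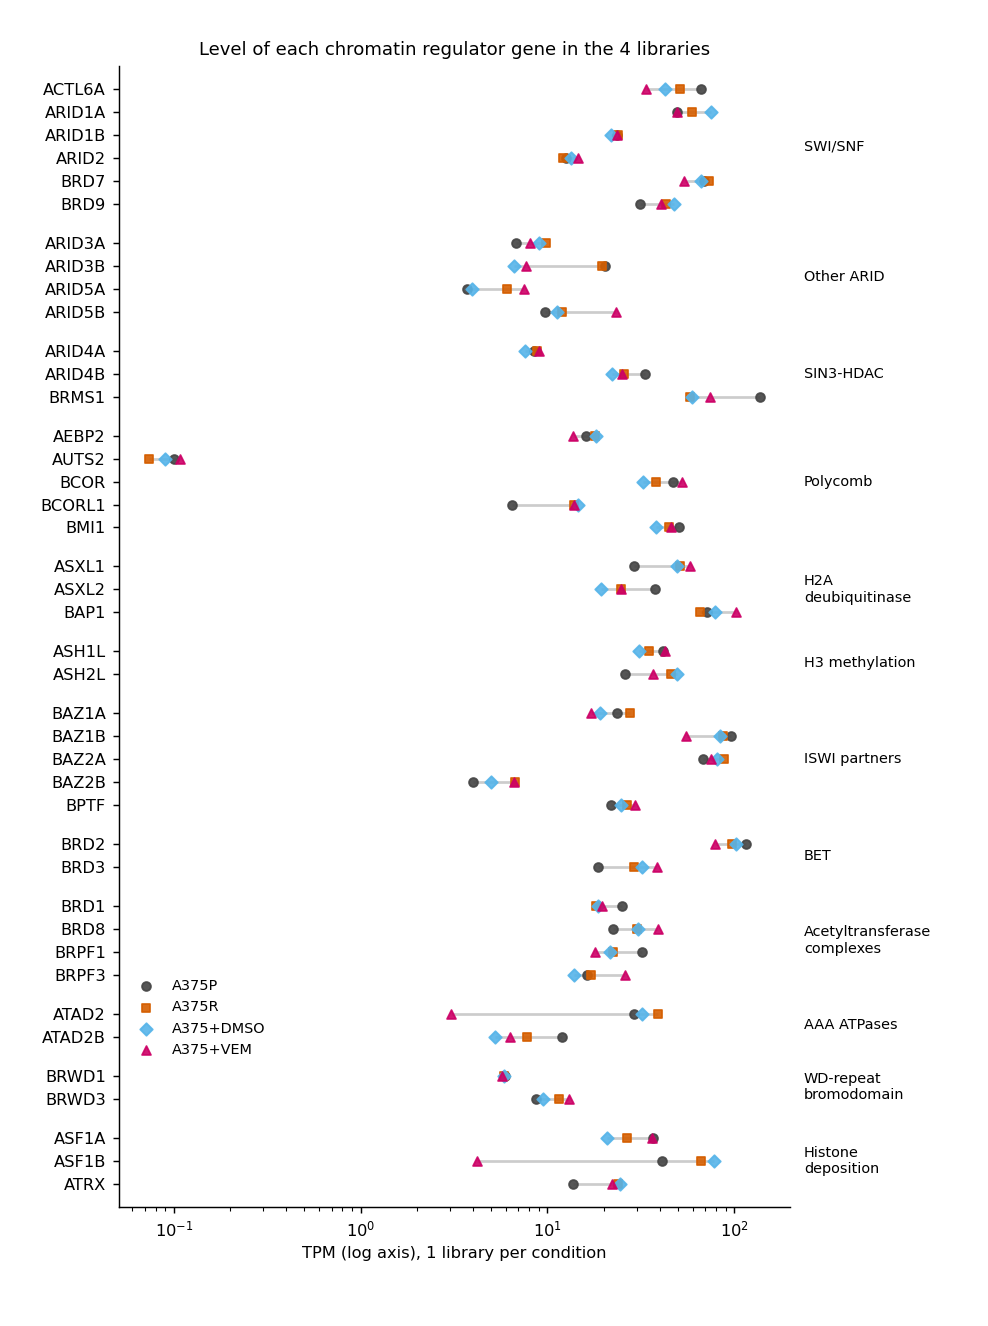
TPM on a log axis of each of the 41 genes, grouped by complex or domain family, with 1 point per library. The points of most genes lie within 2-fold of each other, whereas A375+VEM lies far to the left for ASF1B (4.22) and ATAD2 (3.05), and AUTS2 lies below the rest in every library.

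The levels of most of these genes lay within 2-fold across the 4 libraries. The ratio of the highest to the lowest of the 4 libraries had a median of 1.65 over the 40 expressed genes, beside 2.22 over 1790 genes of the table that passed the same minimum and had a read in every library. It was under 1.5 for 14 genes and under 2 for 30. In A375R against A375P, A375+VEM against A375+DMSO and A375+DMSO against A375P, 18 genes stayed within 1.5-fold in all 3. That is 45%, beside 29.1% of 1648 genes compared in all 3. Neither this share nor the median of 2.22 was taken over genes of a like level. Of the 40 genes, 36 had a TPM of at least 5 in every library, so the steadiness is not shown to be particular to them. BRWD1 varied least, with a TPM of 5.93 in A375P and 5.88 in A375R, with 5.82 in A375+DMSO against 5.69 in A375+VEM. ASF1B varied most, by 18.6-fold, followed by ATAD2 with 12.7-fold and ARID3B with 3.09-fold. A375P was the highest or the lowest library for 28 of the 40 genes and A375+VEM for 23. The same counts were not made over all genes, so they are not shown to be particular to these genes.

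Genes were called when the ratio of (TPM + 0.1) between a pair of libraries was past 1.5-fold in either direction. Log2 ratios below are on that scale, on which differences of low genes are understated, and folds are plain ratios of TPM. The 95% intervals were derived from read counts by the exact Clopper-Pearson method, and they cover counting error only.

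Between A375R and A375P, 11 of 40 genes were called, which is 27.5%, beside 44.3% of all 1689 genes compared. Of these, 8 were higher in A375R (20%, beside 26.8% of all genes) and 3 were lower (7.50%, beside 17.5%), or 6 and 4 when the ratios were scaled to a median of 1. Between A375+VEM and A375+DMSO 9 of 40 were called, 22.5% beside 46.2% of 1784 genes, with 5 higher (12.5% beside 26.5%) and 4 lower (10% beside 19.7%) under the drug. When a TPM of 5 was asked for in either library, the share over all genes was 40.4% in the resistant pair and 42.4% in the acute pair, and 11 and 9 chromatin genes were again called. The median log2 ratio of the 40 genes was 0.07 in A375R against A375P and 0.15 in A375+VEM against A375+DMSO, beside 0.10 and 0.11 over all genes compared. The medians of the 40 genes differed from those over all genes by -0.02 and 0.04. Past 2-fold were BCORL1 above and BRMS1 below in A375R, beside 14.7% and 7.52% of all genes, and ARID5B above and ASF1B and ATAD2 below in A375+VEM, beside 15.3% and 11.1%. Against A375P, 9 genes were higher and 9 lower in A375+VEM, beside 36.9% and 25.3% of 1782 genes and 62.1% in either direction.

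The libraries without vemurafenib also differed from each other. Between A375+DMSO and A375P, 15 of 40 genes were called, 37.5% beside 45.7% of 1720 genes, with 8 higher (20% beside 26.8%) and 7 lower (17.5% beside 18.9%) in A375+DMSO, or 6 and 9 under each of 3 other scalings. With a TPM of 5 asked for, the share over all genes was 41.6%. Past 2-fold were BCORL1 above, beside 16.6% of all genes, and ARID3B, ATAD2B and BRMS1 below, beside 9.36%. The median log2 ratio was 0.03, beside 0.09 over all genes. This comparison shares A375P with that of A375R, so a value particular to the A375P library enters both. Against A375+DMSO, 2 of 40 genes were called in A375R, ARID3B and ARID5A, both higher, which is 5% beside 20.5% of 1702 genes in either direction, with 10.5% higher and 9.99% lower. Of the 40 genes, 27 differed by less than 1.2-fold between A375R and A375+DMSO, a share of 67.5% beside 49.2% of all genes compared. For A375R against A375+DMSO no share was taken over genes of a like level, so a difference from all genes may be one of level. Solvent, culture and passage cannot be told apart between A375P and A375+DMSO.

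**Figure D2:**
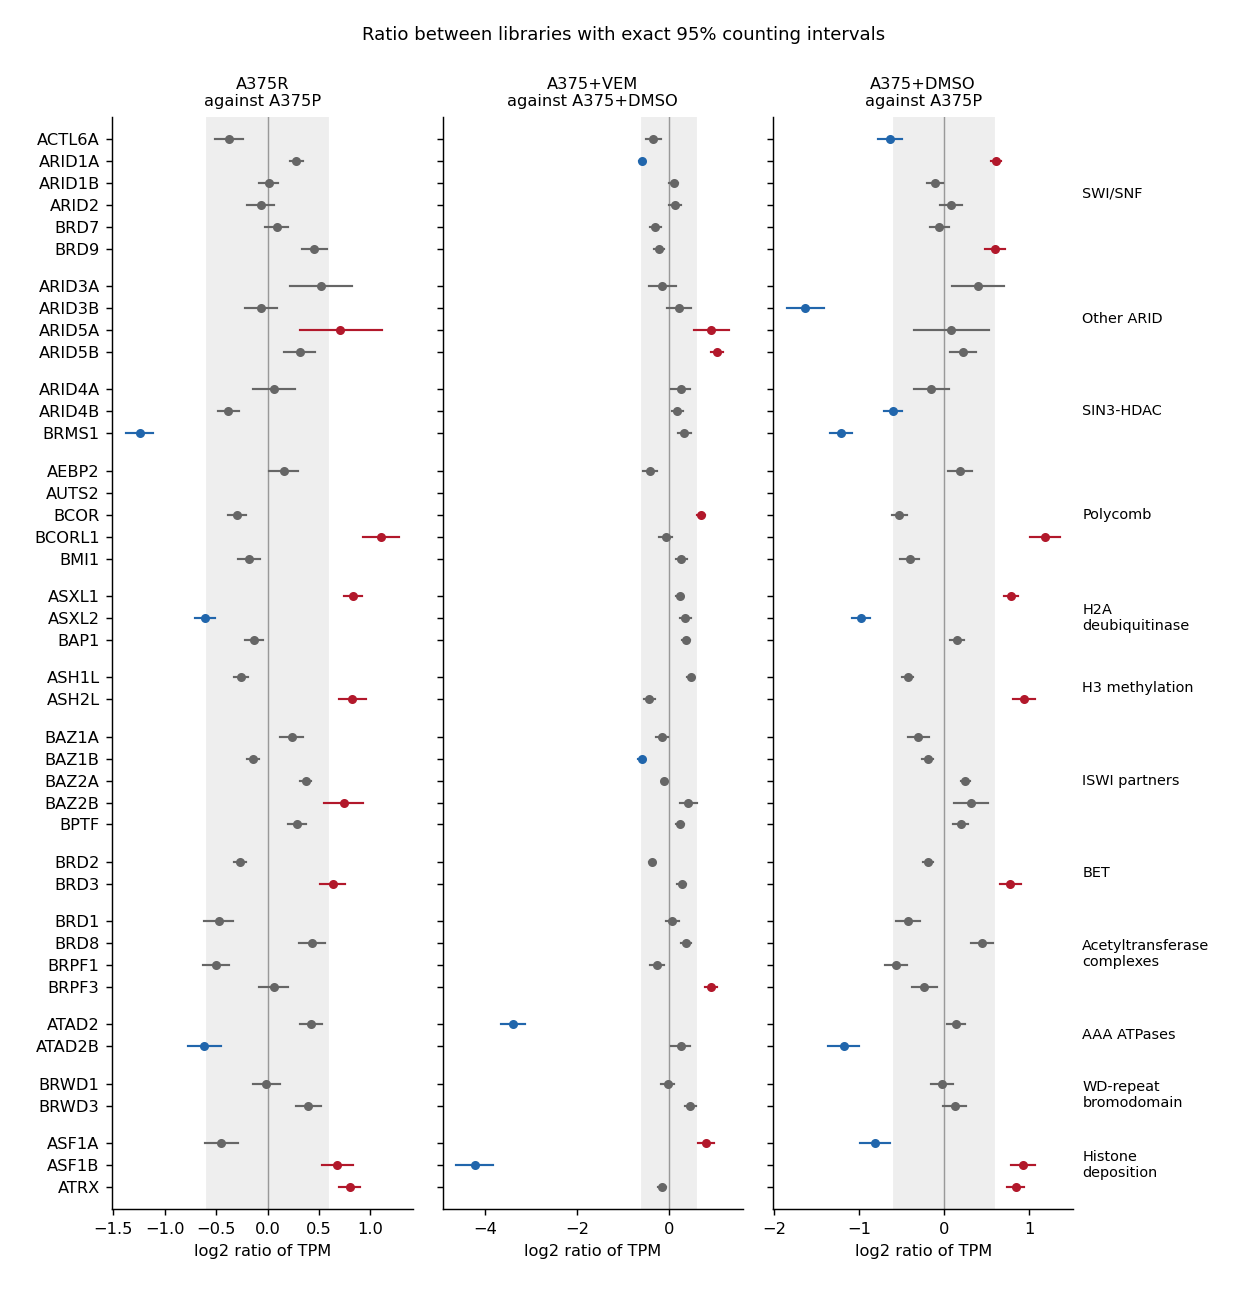
Log2 ratio of TPM for each of 40 genes in A375R against A375P, A375+VEM against A375+DMSO and A375+DMSO against A375P, with exact 95% counting intervals as bars and the range within 1.5-fold shaded. Red marks genes called higher and blue genes called lower, and the horizontal axes differ in range. The points of ASF1B and ATAD2 in the middle panel lie far outside those of the other genes.

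The histone chaperones of the ASF1 family parted most. ASF1A and ASF1B bind histones H3 and H4 and pass them on for assembly into nucleosomes, and ASF1B is the form tied to dividing cells. ASF1B lies on chromosome 19 from 14230321 to 14247440, minus strand, and ASF1A on chromosome 6 from 119215241 to 119230336, plus strand, in the positions of the authors' table, for which the submitters' processing notes list the build hg19. ASF1B had 613 reads in A375P and 886 in A375R, with 1085 in A375+DMSO against 58 in A375+VEM, which gave TPM values of 41.3, 66.1, 78.4 and 4.22. A375+VEM stood apart from the other 3 libraries, and A375P was the lowest of those. Under the drug ASF1B was 18.6-fold lower than in A375+DMSO (95% interval 14.3 to 24.6) and 9.79-fold lower than in A375P (7.47 to 13.1). Of 1784 genes compared, 12 had a lower log2 ratio than its -4.18. In A375R ASF1B was 1.60-fold higher than in A375P (1.44 to 1.78), a call that was lost when the ratios were scaled to a median of 1, and its log2 ratio to A375+DMSO was -0.25. It was also 1.90-fold higher in A375+DMSO than in A375P (1.72 to 2.10). In bulk RNA, fewer cells of a kind and less RNA per cell cannot be told apart.

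ASF1A had TPM values of 36.6 in A375P and 26.8 in A375R, with 20.9 in A375+DMSO against 36.4 in A375+VEM. It was 1.74-fold higher with vemurafenib than in A375+DMSO (1.55 to 1.97), and at a log2 ratio of -0.01 to A375P. A375+DMSO was the lowest library, 1.75-fold below A375P (1.56 to 1.98). ASF1B was thus the more abundant form of the pair in A375R and A375+DMSO, by 2.46-fold and 3.75-fold, and ASF1A was 8.64-fold above ASF1B in A375+VEM. The summed TPM of ASF1A and ASF1B was 78.0 in A375P and 92.9 in A375R, with 99.3 in A375+DMSO against 40.7 in A375+VEM.

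The promoters of this pair are shown because the paralogs separated more than any other pair. Both are RefSeq windows of 300 bases on GRCh38.p14, from 250 bases before the gene start to 50 after, given from 5′ to 3′ on the strand of the gene. Capitals mark TTTGAA, the core of the cell cycle genes homology region (CHR) found in promoters of mitotic genes, and CCAAT, on either strand, so that ATTGG is a CCAAT on the other strand. ASF1B is at chr19:14136540-14136839, minus strand, and ASF1A at chr6:118893902-118894201, plus strand.
ASF1B: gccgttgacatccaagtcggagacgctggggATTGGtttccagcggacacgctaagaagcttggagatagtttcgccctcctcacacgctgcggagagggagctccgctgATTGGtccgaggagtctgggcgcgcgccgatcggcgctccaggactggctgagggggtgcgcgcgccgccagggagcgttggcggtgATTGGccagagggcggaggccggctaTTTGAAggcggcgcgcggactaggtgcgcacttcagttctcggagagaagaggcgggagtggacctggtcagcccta
ASF1A: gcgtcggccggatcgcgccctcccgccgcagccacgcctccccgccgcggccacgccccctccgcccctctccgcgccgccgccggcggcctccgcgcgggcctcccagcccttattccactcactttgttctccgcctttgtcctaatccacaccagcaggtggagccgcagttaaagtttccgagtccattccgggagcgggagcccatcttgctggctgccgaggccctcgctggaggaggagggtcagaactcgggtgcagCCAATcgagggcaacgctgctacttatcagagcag
The ASF1B window holds TTTGAA at position -27 from the start and CCAAT in 3 places, at positions -219, -140 and -53, all as ATTGG. The ASF1A window holds a CCAAT at position 15 and no TTTGAA. Over all 35116 windows of the RefSeq table, TTTGAA on either strand was in 15.2% and CCAAT in 34.6%. The 31 chromatin genes with a window had 49 windows, and a gene was counted if any of its windows held the letters. These counts are therefore per gene, whereas the shares over all windows are per window. Of the 31, TTTGAA was found in ASF1B, ASXL1 and ASXL2, and CCAAT in 9. The E2F-like words TTTGGCGC, TTTCGCGC, TTTCCCGC and TTTGCCGC were in 3.31% of all windows and in those of AEBP2, BRD7 and BRPF3. These matches are letters in a window and say nothing of binding.

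ATRX, the third gene of histone deposition and a partner of DAXX in placing the variant H3.3, had TPM values of 13.7 in A375P and 23.9 in A375R, with 24.6 in A375+DMSO against 22.1 in A375+VEM. A375P was the lowest, with the other 3 libraries close together. ATRX was 1.74-fold higher in A375R than A375P (1.62 to 1.87) and 1.79-fold higher in A375+DMSO (1.67 to 1.92), while the log2 ratio of A375+VEM to A375+DMSO was -0.16.

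ATAD2 and ATAD2B are AAA ATPases with a bromodomain, and ATAD2 is a coactivator made chiefly in cycling cells. ATAD2 had 1386 reads in A375P and 1678 in A375R, with 1427 in A375+DMSO against 135 in A375+VEM, and TPM values of 29.1, 38.9, 32.1 and 3.05. The 3 libraries without acute drug lay within 1.34-fold of each other, and A375+VEM was far below. ATAD2 was 10.5-fold lower with vemurafenib than in A375+DMSO (8.79 to 12.6) and 9.51-fold lower than in A375P (7.97 to 11.4), and 26 of 1784 genes had a lower log2 ratio than its -3.35. ATAD2B had a TPM of 11.96 in A375P and 7.81 in A375R, with 5.27 in A375+DMSO against 6.28 in A375+VEM. It was lower than in A375P by 1.53-fold in A375R (1.37 to 1.71) and by 2.27-fold in A375+DMSO (2.00 to 2.58), of which the call in A375R was lost with a pseudocount of 1, and it was not called under the drug. ATAD2 was 6.09-fold above ATAD2B in A375+DMSO and below it in A375+VEM, at a ratio of 0.487.

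Cell division and DNA replication genes were low in the same library as ASF1B and ATAD2. Of 17 such genes 16 were called lower in A375+VEM than in A375+DMSO (94.1% beside 19.7% of all genes) and none higher, with a median log2 ratio of -3.79. Their summed TPM was 503 in A375P and 706 in A375R, with 696 in A375+DMSO against 119 in A375+VEM, and none was at 0 reads in any library. BIRC5 was at a log2 ratio of -6.11 under the drug, ASPM at -5.82, BUB1B at -5.80, AURKB at -5.21, BUB1 at -4.85 and BLM at -4.31. In A375R against A375P 12 of the 17 were called higher (70.6% beside 26.8% of all genes), and in A375+DMSO against A375P 11 were (64.7% beside 26.8%). The list was chosen with earlier results of these data known, so its shares are description only. The part of cell division in the levels of ASF1B and ATAD2 was not tested.

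**Figure D3:**
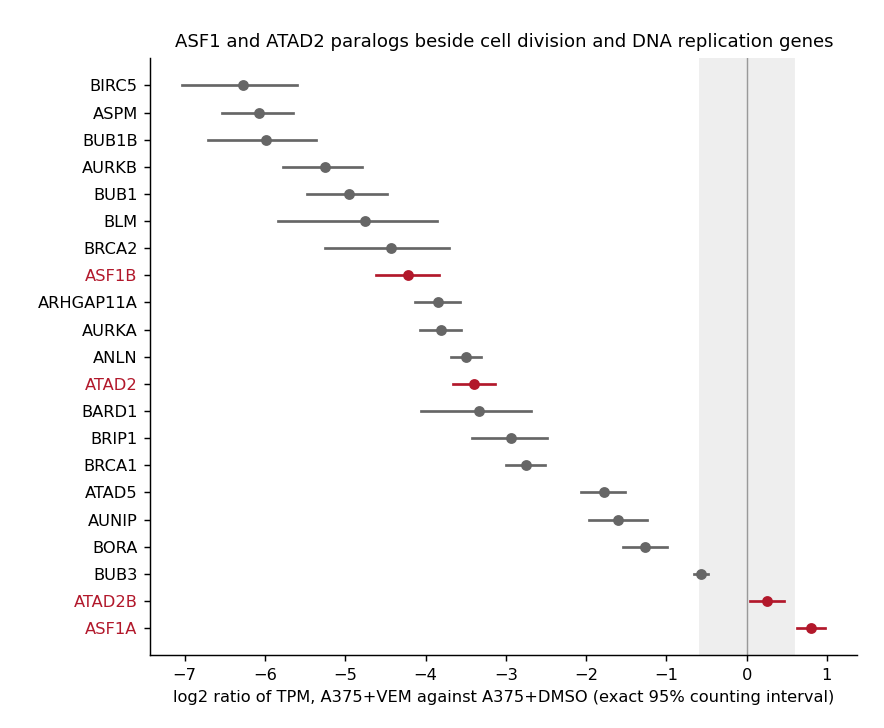
Log2 ratio of TPM in A375+VEM against A375+DMSO for ASF1A, ASF1B, ATAD2 and ATAD2B (red) and 17 cell division and DNA replication genes (grey), with exact 95% counting intervals and the range within 1.5-fold shaded. ASF1B and ATAD2 lie among the cell division genes, while ATAD2B and ASF1A lie to the right of 0.

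SWI/SNF remodellers slide and evict nucleosomes. None of the 6 subunits counted here was called in A375R against A375P, beside 44.3% of all genes, and 6 genes are too few to set against that share. BCL7A, BCL7B, BCL7C and ACTB, also subunits, were counted below with the other chromatin genes. Of these only BCL7A was called in A375R against A375P, lower at a log2 ratio of -0.74. In A375+VEM against A375+DMSO, BCL7A (-0.74), BCL7C (-0.66) and ACTB (-0.62) were called lower and BCL7B was not called. ARID1A, the DNA-binding subunit of the canonical BAF form, had TPM values of 49.1 in A375P and 59.7 in A375R, with 74.99 in A375+DMSO against 49.5 in A375+VEM. A375+DMSO was the highest, and A375+VEM was at the level of A375P. ARID1A was therefore 1.52-fold lower with vemurafenib than in A375+DMSO (1.45 to 1.58) but at a log2 ratio of 0.01 to A375P. Its paralog ARID1B, which takes its place in other BAF complexes, stayed between a TPM of 22.0 and 23.8. ARID2, of the PBAF form, was at 12.1 to 14.5. ACTL6A, an actin-related subunit, was highest in A375P with a TPM of 66.5, followed by 51.2 in A375R, with 42.7 in A375+DMSO against 33.6 in A375+VEM. It was 1.56-fold lower in A375+DMSO than in A375P (1.41 to 1.72). BRD7, of PBAF, was at a TPM of 54.0 to 73.6 and BRD9, of the non-canonical form, at 31.3 to 47.4. Pseudogene copies of BRD7 are in the table, of which BRD7P2 had 0 to 5 reads and BRD7P4 0 to 2 per library. BRD9 was 1.51-fold higher in A375+DMSO than in A375P (1.39 to 1.64), and both this call and that of ARID1A in the same comparison were lost with 3 other scalings.

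The other ARID genes held some of the wider spreads. ARID3B, a DNA-binding factor of development on chromosome 15 from 74833518 to 74890472 in the positions of the table, had 749 reads in A375P and 648 in A375R, with 226 in A375+DMSO against 261 in A375+VEM, and TPM values of 20.4, 19.6, 6.61 and 7.69. The untreated parental and the resistant library were high, and both libraries of the 48 h pair were low. ARID3B was 3.09-fold lower in A375+DMSO than in A375P (2.66 to 3.60) and 2.96-fold higher in A375R than in A375+DMSO (2.54 to 3.46), and it was not called in A375R against A375P or in A375+VEM against A375+DMSO. Its paralog ARID3A was at a TPM of 6.82 to 9.79 in all 4 libraries.

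ARID5A, which binds RNA and stabilises inflammatory transcripts, and ARID5B, a cofactor of the demethylase PHF2, were higher under vemurafenib. ARID5B, on chromosome 10 from 63661013 to 63856707, had 682 reads in A375P and 765 in A375R, with 741 in A375+DMSO against 1518 in A375+VEM, so that A375+VEM was alone above the rest. Its TPM in A375+VEM was 23.3, which was 2.06-fold that in A375+DMSO (1.89 to 2.26) and 2.40-fold that in A375P (2.19 to 2.63). ARID5A had 90, 133, 89 and 167 reads in the same order. It was the only gene of the 40 called in the same direction in the resistant and the acute pair, 1.64-fold higher in A375R than A375P (1.24 to 2.16) and 1.89-fold higher with vemurafenib than in A375+DMSO (1.45 to 2.47). Over all genes compared in both pairs the share called in the same direction was 10.1%, and that in opposite directions 12.1%. With fewer than 200 reads per library, the lower ends of these intervals fall within 1.5-fold.

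SIN3 complexes bring histone deacetylases to genes. BRMS1, a subunit first known as a suppressor of metastasis, lies on chromosome 11 from 66104804 to 66112582 in the positions of the table. Its reads numbered 1690 in A375P and 644 in A375R, with 680 in A375+DMSO against 850 in A375+VEM, and TPM values of 137, 57.9, 59.2 and 74.5. A375P stood above the other 3 libraries. BRMS1 was the lowest of the 40 genes in A375R against A375P, 2.37-fold lower (2.16 to 2.60), and 2.32-fold lower in A375+DMSO than in A375P (2.12 to 2.54), while A375R and A375+DMSO differed by a log2 ratio of -0.03. ARID4B was also highest in A375P, with a TPM of 33.5 against 22.1 to 25.7 elsewhere, and 1.52-fold lower in A375+DMSO (1.41 to 1.63), a call lost with a pseudocount of 1. ARID4A was at 7.63 to 9.05.

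Polycomb complexes and their partners keep genes silent. BCOR and BCORL1 are scaffolds of a variant of Polycomb repressive complex 1. BCORL1, on chromosome X from 129139164 to 129192058, had TPM values of 6.45 in A375P and 13.9 in A375R, with 14.6 in A375+DMSO against 13.9 in A375+VEM, so that A375P was alone below the rest. It had the highest log2 ratio of the 40 genes in A375R against A375P, 1.09, a 2.15-fold difference (1.90 to 2.43), and was 2.27-fold higher in A375+DMSO (2.01 to 2.56). BCOR was at 46.9 in A375P, above its 38.1 in A375R and 32.6 in A375+DMSO, and at 52.4 in A375+VEM. Its difference between A375+DMSO and A375P was within 1.5-fold, but past it under 3 other scalings. It was 1.61-fold higher with vemurafenib than in A375+DMSO (1.51 to 1.71), a call that was lost with 3 other scalings. BMI1, the RING partner that stabilises the core complex, was at a TPM of 38.3 to 50.8 and AEBP2, a cofactor of Polycomb repressive complex 2, at 13.6 to 18.3, and neither was called in any pair.

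BAP1 removes ubiquitin from histone H2A with ASXL1 or ASXL2 as its partner. BAP1 had TPM values of 71.7 in A375P and 65.3 in A375R, with 79.3 in A375+DMSO against 102 in A375+VEM and was not called in these 3 comparisons. ASXL1 had 28.9, 51.5, 49.7 and 58.1 in the same order, with A375P below the rest, and ASXL2 had 37.9, 24.9, 19.3 and 24.6, with A375P above the rest. ASXL1 was 1.78-fold higher in A375R than A375P (1.68 to 1.89), whereas ASXL2 was 1.52-fold lower (1.42 to 1.63). In A375+DMSO, set against the same A375P library, ASXL1 was 1.72-fold higher (1.62 to 1.82) and ASXL2 1.96-fold lower (1.83 to 2.11). The ratio of ASXL1 to ASXL2 was 0.764 in A375P and between 2.07 and 2.58 in the other 3 libraries.

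Of the methyltransferase genes, ASH2L, a core subunit of the complexes that methylate lysine 4 of histone H3, had TPM values of 25.9 in A375P and 46.0 in A375R, with 49.7 in A375+DMSO against 36.9 in A375+VEM. It was 1.77-fold higher in A375R than A375P (1.62 to 1.95) and 1.91-fold higher in A375+DMSO (1.75 to 2.10). ASH1L, which methylates lysine 36, was at 30.9 to 42.7 and was not called. ASH1L-AS1, an antisense lncRNA that overlaps it, had 73 to 131 reads against 2912 to 4205 of ASH1L, and the sources used here leave unstated whether counting used strand.

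ISWI partners give remodellers their targets. BAZ1B, of the WICH complex, had TPM values of 95.6 in A375P and 86.7 in A375R, with 83.5 in A375+DMSO against 55.2 in A375+VEM and was 1.51-fold lower with vemurafenib than in A375+DMSO (1.44 to 1.59). BAZ1A, of the ACF and CHRAC complexes, was at 17.1 to 27.7. BAZ2A, which silences ribosomal RNA genes, was at 68.4 to 88.4, and its paralog BAZ2B was 11.3-fold to 17.1-fold below it. BAZ2B was 1.67-fold higher in A375R than A375P (1.47 to 1.91), at 3.99 and 6.67. BPTF, the large subunit of NURF, was at 21.8 to 29.3 and not called.

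BET proteins bind acetylated histones at active genes. BRD2 had TPM values of 116 in A375P and 96.8 in A375R, with 102 in A375+DMSO against 78.7 in A375+VEM and was not called. BRD3 had 18.7, 29.1, 32.1 and 38.7, with A375P lowest and A375+VEM highest, and was 1.55-fold higher in A375R than A375P (1.42 to 1.69), a call lost with 3 other scalings. In A375+DMSO it was 1.71-fold higher than in A375P (1.57 to 1.86). The ratio of BRD2 to BRD3 was 6.21 in A375P and 3.33 in A375R, with 3.19 in A375+DMSO against 2.03 in A375+VEM.

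Among bromodomain proteins of acetyltransferase complexes, none of 4 was called in A375R against A375P, beside 44.3% of all genes. None was called in A375+DMSO against A375P, beside 45.7%, and 4 genes are too few to set against these shares. However, BRPF1 was called lower in A375+DMSO under 3 other scalings and in A375R when the ratios were scaled to a median of 1. BRPF3, a scaffold of the HBO1 complex, had TPM values of 16.4 in A375P and 17.1 in A375R, with 14.0 in A375+DMSO against 26.1 in A375+VEM, so that A375+VEM was alone above the rest, 1.87-fold higher than A375+DMSO (1.70 to 2.06). Its paralog BRPF1, of the MOZ and MORF complexes, was lowest in A375+VEM, with 32.0, 22.6, 21.6 and 18.1 in the same order. The ratio of BRPF1 to BRPF3 was 1.95 in A375P and 0.692 in A375+VEM. BRD1, a scaffold of HBO1 complexes as well, was at 18.1 to 25.2. BRD8, of the TIP60 complex, was at 22.4 in A375P and 30.2 in A375R, with 30.4 in A375+DMSO against 39.3 in A375+VEM. BRWD3, a WD-repeat protein, was at 8.73 to 13.1 and not called.

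The list held 14 pairs of paralogs, and no share was computed over other pairs of genes to set beside the counts below. In A375R against A375P the log2 ratios of the paralogs differed by more than 1.5-fold in 5 pairs, in A375+VEM against A375+DMSO in 6 pairs and in A375+DMSO against A375P in 8 pairs. In A375R against A375+DMSO they did so in 2 pairs, ARID3A with ARID3B and ASF1A with ASF1B. ASF1A and ASF1B, ATAD2 and ATAD2B, BCOR and BCORL1, and BRD2 and BRD3 were past it in each of the first 3. Of these, A375+DMSO against A375P shares a library with each of the others, so the comparisons are not independent. The difference was widest for ASF1A against ASF1B under the drug, 4.98 on the log2 scale, followed by ATAD2 against ATAD2B at -3.60. It was 1.75 for ASXL1 against ASXL2 and 2.01 for ARID3A against ARID3B in A375+DMSO against A375P. For ARID4A and ARID4B, ARID5A and ARID5B, BAZ1A and BAZ1B, BAZ2A and BAZ2B, and BRWD1 and BRWD3 the log2 ratios differed by less than 1.5-fold in all 3, whatever their levels.

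**Figure D4:**
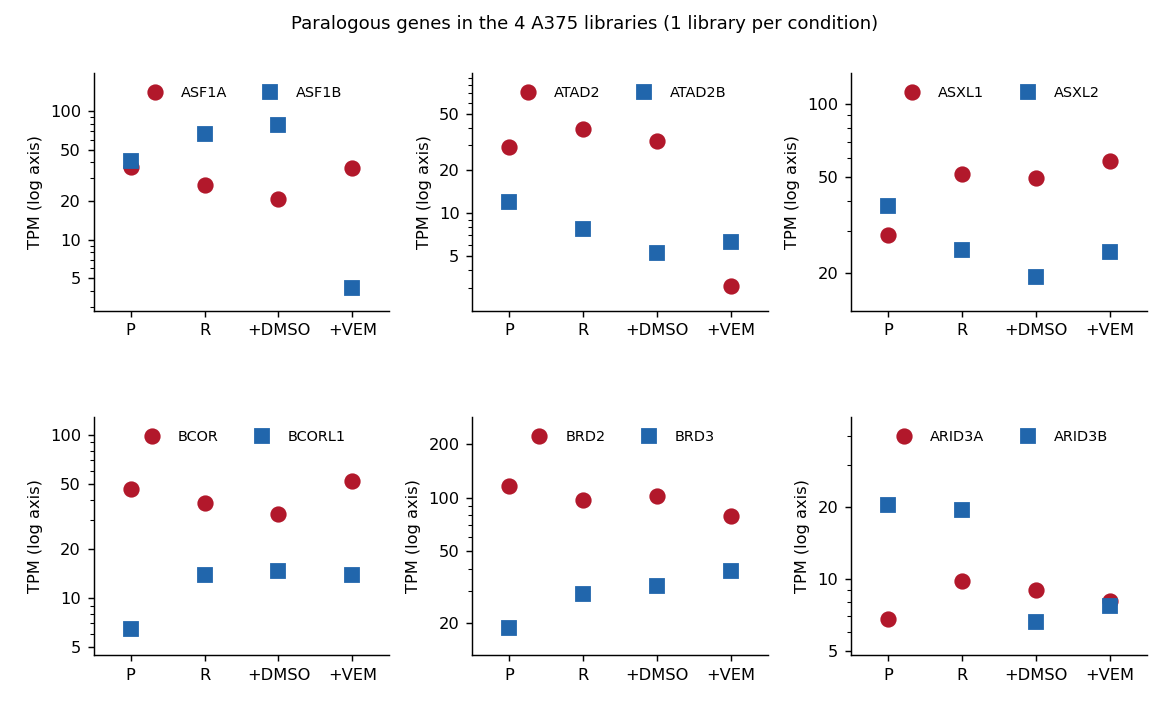
TPM on a log axis of 6 pairs of paralogs in A375P (P), A375R (R), A375+DMSO and A375+VEM, with 1 library per condition. ASF1B and ATAD2 lie below their paralogs in A375+VEM, ASXL1 lies below ASXL2 in A375P and above it elsewhere, and ARID3B lies above ARID3A in A375P and A375R.

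Of a list of other chromatin genes 36 of 38 were in the table, and 30 were compared in each pair. In A375R against A375P 7 were higher (23.3% beside 26.8% of all genes) and 3 lower (10% beside 17.5%). They were led by ATF7IP, a cofactor of the SETDB1 methyltransferase, at a log2 ratio of 2.00, ADNP2 at 1.43 and BCL11A at 1.36, and by BANP at -1.07, BANF1 at -0.77 and BCL7A at -0.74. In A375+DMSO against A375P 5 were higher (16.7% beside 26.8%), among them ATF7IP at 1.92, BCL11A at 1.19 and ADNP2 at 1.12. Only BANP was lower, at -1.04 (3.33% beside 18.9%). In A375+VEM against A375+DMSO 9 were lower and 1, ACTR8, was higher at 0.74 (3.33% beside 26.5%). The lowest were ANP32E, a chaperone of the histone variant H2A.Z, at -1.99, ACTR5, of the INO80 remodeller, at -0.996 and ANP32B, a histone chaperone, at -0.98. The share lower under the drug was 30% in this list, 10% among the 40 genes and 19.7% over all genes compared.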

How the data were processed

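RNA-seq of 4 libraries was analysed, 1 per condition, with conditions taken from the sample labels. The authors deposited 1 table with whole-number read counts without normalization and TPM, the count per gene length set to a common sum per library. The submitters' processing notes list hg19, HISAT, HISAT2, TopHat2 and Bowtie2 with no role, and the counting program is not given in the sources used here. The table holds 2864 genes with values, and 1 row without values was left out. The genes and lists were chosen with earlier results of these data known.

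Ratios were taken on (TPM + 0.1) where either library had a TPM of 1 or more, and called past 1.5-fold. No test was run. No fit pooled the conditions, since they are not replicates. All 41 genes were named, with up to 3 of the highest and lowest past 1.5-fold from the other chromatin genes and 6 cell division genes by the size of their log2 ratio. The 95% intervals were computed on the counts, scaled by the constants behind the TPM. Promoters came from RefSeq (GRCh38.p14), matched by symbol for 31 genes. The steps were tested on simulated data. Alternatives were pseudocounts of 1 and 0.01, no minimum, a minimum TPM of 5, scaling to a median ratio of 1, TMM factors of edgeR, size factors of DESeq2, 2-fold, and the other control. R 4.3.3 with edgeR 4.0.16 and DESeq2 1.42.0 was used beside Python 3.11.15 with scipy 1.17.1, numpy 2.4.6, matplotlib 3.10.9 and pandas 2.3.3.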

Additional observations from a re-analysis of the deposited data

Results flagged for a closer look

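ASF1B was the only gene of the 40 called in both pairs with opposite signs, at a log2 ratio of 0.68 in A375R against A375P and of -4.18 in A375+VEM against A375+DMSO. Over all genes compared in both pairs, 12.1% were called with opposite signs, so such a gene is not unusual here. The call in A375R was lost when the ratios were scaled to a median of 1. Whether the pairs differ was not tested. With the controls exchanged ASF1B had log2 ratios of -0.25 (A375R to A375+DMSO) and -3.26 (A375+VEM to A375P), so the opposite signs depend on A375P as the control of A375R.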

How the results depend on the processing

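Under pseudocounts of 1 and 0.01, no minimum, a minimum TPM of 5, scaling to a median ratio of 1, TMM factors and size factors of DESeq2, the counts of genes above and below 1.5-fold in the 3 comparisons stayed within 1.5 times of those reported. At 2-fold, which is stricter by construction, 1 gene was above and 1 below in A375R against A375P, 1 and 2 in A375+VEM against A375+DMSO, and 1 and 3 in A375+DMSO against A375P. With A375+DMSO as the control, 2 genes were above and 0 below in A375R, and among the genes called against A375P the log2 ratio changed sign for ASF1B (-0.25), ASH2L (-0.11), ASXL2 (0.37), ATAD2B (0.56), ATRX (-0.0392), BCORL1 (-0.0772) and BRD3 (-0.14). With A375P as the control, 9 genes were above and 9 below in A375+VEM, beside 36.9% and 25.3% of all genes, and among the genes called against A375+DMSO the sign changed for ARID1A (0.01003) and ASF1A (-0.008192). The cause was not tested. TMM factors lowered the median log2 ratio of all genes in A375+VEM against A375+DMSO by 0.16, size factors of DESeq2 by 0.11 and scaling to a median ratio of 1 by 0.11. The scalings ended the calls of ASF1B and BRD3 in A375R, BCOR in A375+VEM, and ARID1A and BRD9 in A375+DMSO, ASF1B by the median ratio alone, and no call changed sign. A pseudocount of 1 ended those of ATAD2B in A375R and of ARID4B and BRD9 in A375+DMSO. No replicate could be left out, and no paired analysis was possible because each condition has 1 library. Precision is limited by reads for ARID5A, ARID3A and AUTS2, and for ASF1B and ATAD2 in A375+VEM, with 58 and 135 reads.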
